A study of Arabidopsis thaliana with 12 samples.

Results

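Among 23916 genes measured in Arabidopsis thaliana seedlings, 50 differed from the wild type in plants with the histone H3.3 substitution T31A and lay close to it in both other mutants of the study. They were chosen by mean transcript level in TPM, a read count scaled to gene length and library size, with length taken here as the gene span, introns included. A gene was taken when its mean was at least 5 TPM in T31A or Col, its T31A mean was at least 1.5 times or at most 0.67 times the Col mean, and its K36A and efs means were both within 15% of the Col mean. This gave 16 genes higher in T31A, called rises below, and 34 genes lower in T31A, called falls. These ratios chose the genes, so the values of the 50 genes are given as a description, with no test.

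RNA was sequenced from 10-day-old seedlings of 4 genotypes, with 3 libraries each, kept at 22 °C under 16 h light and 8 h dark. For T31A, the labels name an H3.3 knockout background with an added HTR5, an H3.3 gene, whose threonine at that position is changed to alanine. K36A has the same labelled background and an added HTR5 with a lysine changed to alanine, and efs is a mutant of EFS whose lesion the labels do not give. Col is the wild type and carries neither the knockout nor an added copy, and plants of the knockout with an unmutated HTR5 copy were not analysed here. A difference between T31A and Col therefore covers all 3 alterations, knockout, added gene and substitution. T31A and K36A share the labelled knockout and differ in the substitution, but each carries its own added gene. The labels do not give insertion site, copy number or line history, so T31A against K36A does not isolate the substitution. Whether replicate libraries came from separately grown plants is not labelled, so their spread may be technical.

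H3.3 is the histone H3 variant that is placed on chromatin outside of DNA replication and is found mainly over transcribed genes and regulatory regions. In plants it differs from the replication-coupled form H3.1 at a few residues, among them the residue at the T31 position, which is a threonine in H3.3 and an alanine in H3.1. Lysine 36 of H3 is methylated over transcribed genes, and EFS, also called SDG8, is a methyltransferase for it. The 50 genes are thus those with a shift in T31A that was not matched in mean level in K36A, where the lysine of the added H3.3 is changed, or in efs, where this writer is mutated.

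Sequencing depth, recovered as whole reads from the TPM values, was 17617540 to 34089265 reads per library. HTR8, an H3.3 gene, averaged 16.5 TPM in T31A, 20.7 in K36A, 219 in efs and 129.7 in Col, and HTR5 averaged 653 TPM in T31A, 591 in K36A, 394 in efs and 329 in Col. HTR4, another H3.3 gene, was also lower in T31A than in Col, but far less so than HTR8, and its test is given with the gene lists below. Transcript level thus checks the knockout label through HTR8 and not through HTR4. EFS averaged 15.4 TPM in efs and 15.5 in Col, so its level does not check the efs label. Markers of green tissue summed to 44930 to 50154 TPM in T31A, 41596 to 48708 in K36A, 37393 to 39319 in efs and 49290 to 54771 in Col. The sums for root markers were 224 to 248 in T31A, 359 to 402 in K36A, 357 to 382 in efs and 235 to 311 in Col. Seed markers, which include oleosin and EM genes beside storage proteins, summed to 106 to 122 TPM in T31A, 53.1 to 65.5 in K36A, 79.2 to 83.1 in efs and 29.2 to 37.0 in Col. Of these, SESA1, SESA2 and SESA3 were at 0 in Col, and SESA4 was at 0 in K36A. Of 3 pollen markers in the table, VGD1 was at 0 in T31A, efs and Col, and their sum was 1.06 to 2.26 TPM in T31A, 2.37 to 3.18 in K36A, 1.20 to 1.74 in efs and 1.36 to 2.44 in Col. The part of these differences in the results below was not tested, and in whole seedlings fewer cells of a type and less RNA per cell cannot be told apart.

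The 50 genes were a small share of all changes in T31A. Of 16067 genes past the limit of 5 TPM, 696 were at least 1.5 times and 674 at most 0.67 times their Col mean in T31A, and the chosen genes made up 2.30% of these rises and 5.04% of these falls. The same rule with K36A as the changed genotype gave 30 rises and 36 falls, and with efs it gave 126 rises and 268 falls. Most of the 50 lay near the limits: 12 of the 16 rises were between 1.5 and 1.6 times Col, and 22 of the 34 falls were between 0.64 and 0.67 times Col. Only AT5G05365 was at least 2 times its Col mean, and only AT5G19870 was at most 0.5 times its Col mean.

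**Figure D1:**
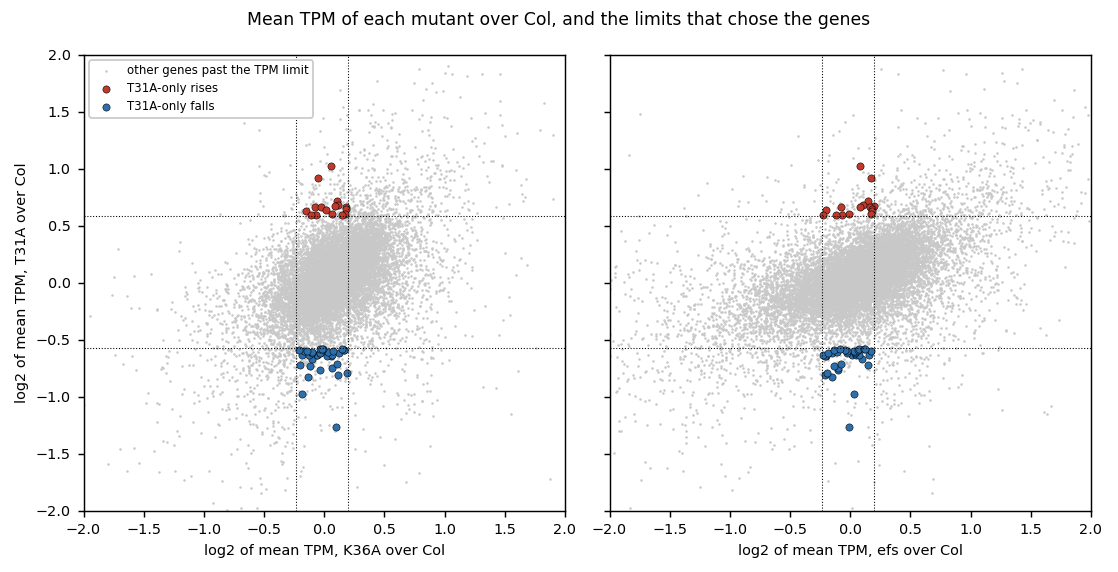
Log2 of mean TPM over Col for T31A (vertical axes) against K36A (left) and efs (right), for genes past 5 TPM in T31A or Col, with axes ending at ±2. Dotted lines are the limits of the rule, and the 16 rises and 34 falls fill the strips above and below the centre, mostly next to the line.

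All 3 T31A libraries lay above all 3 Col libraries in 15 of 16 rises, against 25.4% of the 16067 genes, and below them in 33 of 34 falls, against 16.4%. They lay above the 3 K36A libraries in 15 rises (18.2% of all genes) and below them in 31 falls (26% of all genes). Against efs, the counts were 14 rises (25.9%) and 32 falls (32.2%). In 13 rises and 29 falls the T31A libraries lay beyond all 9 others, which 4% and 4.91% of all genes did. The rule drew on all of these values, so nothing is read from the counts.

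How close K36A and efs stayed to Col was less well measured than the ratios alone would show. K36A and Col libraries still did not overlap in 1 rise (K36A higher, as in 26% of all genes) and in 5 falls, with K36A lower in 3 (12.6% of all genes) and higher in 2. Efs and Col libraries did not overlap in 2 rises, with efs higher in 1 (35.5% of all genes) and lower in 1 (21.2%), and in 4 falls, all with efs lower. The 95% interval of the difference from limma, on the log2(TPM + 1) scale, lay within 0.32 log2 units of Col in 6 of 16 rises and 15 of 34 falls for K36A, and in 4 rises and 12 falls for efs. Within the fold of the rule's own upper limit it lay in 0 rises and 1 fall for K36A, and in 0 rises and 2 falls for efs. Within 1.5-fold, or 0.58 log2 units, it lay in 15 rises and 33 falls for K36A, and in 14 rises and 33 falls for efs. For the genes outside these counts the interval leaves room for a larger difference, so closeness of the means does not show that a gene was the same in K36A or efs as in Col. The rule chose genes with K36A and efs means near Col, so these intervals are centred near Col by choice. Their coverage over the chosen genes need not be 95%, and the genes inside the counts are not shown to be unchanged either.

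**Figure D2:**
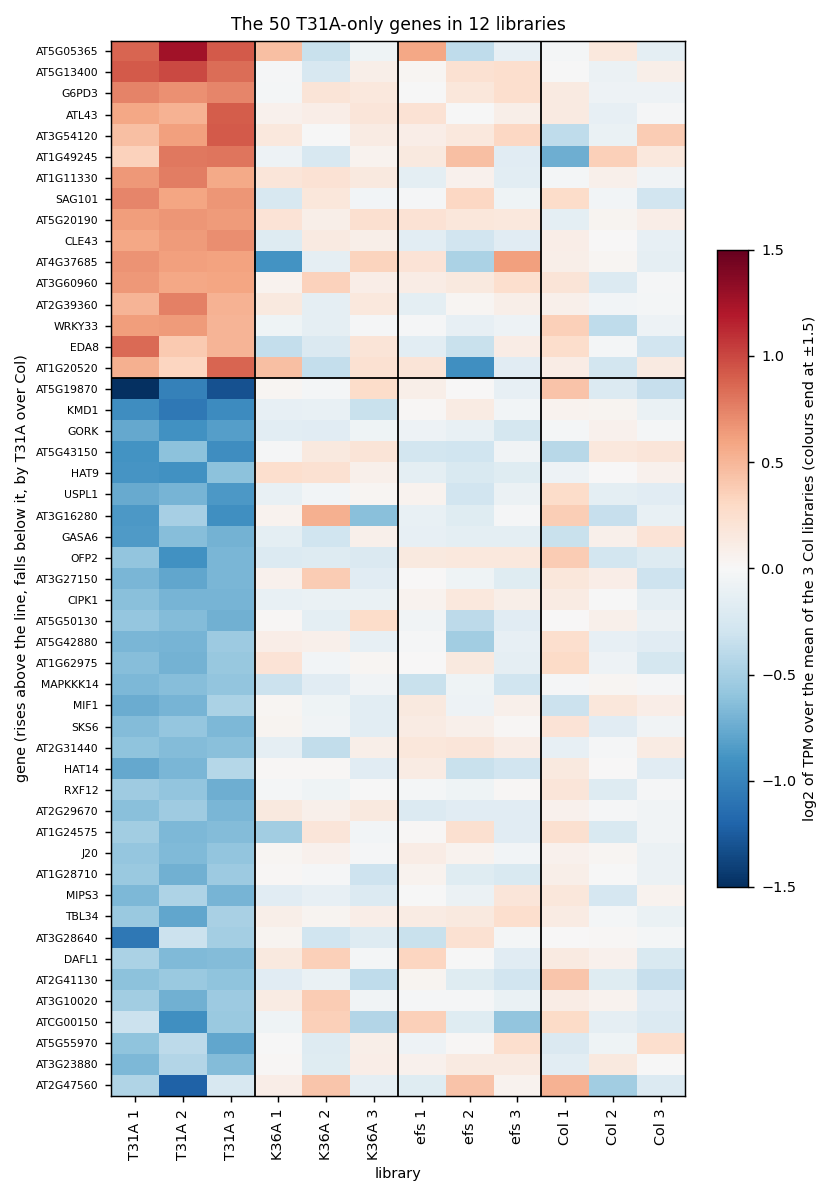
Log2 of TPM over the Col mean in each of the 12 libraries (columns) for the 50 genes (rows, rises above the line and falls below it). The 3 T31A columns carry the colour in nearly every row, and single paler or darker cells mark libraries that stand away from their group, such as Col 1 in AT1G49245.

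Among the rises were 2 genes of plant immunity. SAG101 is a lipase-like protein that pairs with EDS1 in signalling downstream of intracellular immune receptors. SAG101 (chr5:4828499-4830982, TAIR10.1) had 16.2, 14.7 and 15.3 TPM in T31A, 8.22, 10.9 and 9.48 in K36A, 9.63, 12.03 and 9.28 in efs, and 11.8, 9.45 and 7.98 in Col. Every T31A library was above the 9 others, and the T31A mean was 1.58 times that of Col. WRKY33 is a transcription factor needed for resistance to necrotrophic fungi and for synthesis of the defence compound camalexin. It had 32.0, 32.3 and 29.5 TPM in T31A, 19.9, 18.9 and 20.5 in K36A, 20.5, 18.9 and 19.6 in efs, and 26.6, 15.9 and 19.7 in Col. The T31A libraries were again above all others, at 1.51 times the Col mean, but Col replicate 1 lay close to them. WRKY33 binds W-boxes, written here as TTGACC or TTGACT on either strand, and the region from 250 bases before to 50 after its own annotated start holds 2 of them, in capitals below (chr2:16107985-16108284, plus strand, TAIR10.1, from RefSeq).
WRKY33: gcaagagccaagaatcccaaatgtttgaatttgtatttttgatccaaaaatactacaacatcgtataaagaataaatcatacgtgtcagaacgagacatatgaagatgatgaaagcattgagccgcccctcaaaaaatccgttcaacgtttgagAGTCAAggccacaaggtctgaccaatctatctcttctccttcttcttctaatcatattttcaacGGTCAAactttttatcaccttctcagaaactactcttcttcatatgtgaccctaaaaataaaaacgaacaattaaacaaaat
The W-boxes begin 96 and 32 bases before the annotated start and are both read on the opposite strand. A W-box was found in 7 of the 16 rises (43.8%) and in 32.6% of the 23743 promoters of the same length, and a match describes letters and not a binding site.

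AT1G11330 is annotated as an S-locus lectin protein kinase, a class of receptor kinases at the cell surface. AT1G11330 had 13.8, 14.95 and 13.1 TPM in T31A, 10.0, 10.2 and 9.73 in K36A, 7.98, 9.202 and 7.87 in efs, and 8.64, 9.26 and 8.4997 in Col. T31A was highest, and this is the rise in which K36A also lay above Col in every library. AT2G39360, annotated as a protein kinase, had 21.5, 25.5 and 21.7 TPM in T31A, 16.7, 13.8 and 16.9 in K36A, 13.6, 15.4 and 16.0 in efs, and 15.9, 14.7 and 14.8 in Col. No other genotype reached the lowest T31A library. CLE43 encodes a small peptide of the CLAVATA3/ESR-related family, whose members act as signals between cells. CLE43 had 9.27, 9.61 and 10.0 TPM in T31A, 5.41, 6.78 and 6.59 in K36A, 5.55, 5.08 and 5.4999 in efs, and 6.64, 6.25 and 5.71 in Col. The efs libraries were all a little below Col, opposite to T31A.

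G6PD3 is a glucose-6-phosphate dehydrogenase, the enzyme that opens the oxidative pentose phosphate pathway and makes NADPH. G6PD3 had 21.3, 20.4 and 21.0 TPM in T31A, 12.4, 14.5 and 14.1 in K36A, 12.6, 14.3 and 15.1 in efs, and 14.0, 12.1 and 12.01 in Col. T31A was at 1.65 times the Col mean with an SD of 0.482 TPM, and K36A, efs and Col overlapped one another. AT5G13400 is annotated as a major facilitator superfamily protein, a family of membrane transporters. AT5G13400 had 76.4, 79.9 and 72.0 TPM in T31A, 39.8, 33.9 and 42.7 in K36A, 40.9, 47.2 and 47.8 in efs, and 39.9, 37.8 and 42.9 in Col. Its T31A mean was 1.89 times that of Col, and no library outside T31A came near the lowest T31A value. AT5G05365, annotated as a heavy metal transport and detoxification protein, had the largest ratio, 2.04. It had 4.79, 6.25 and 4.96 TPM in T31A, 3.58, 2.07 and 2.51 in K36A, 3.90, 2.02 and 2.40 in efs, and 2.58, 2.92 and 2.36 in Col. These values rest on 13 to 60 reads per library, and AT5G05365 overlaps the gene AT5G05370.

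The most abundant rise was AT5G20190, annotated as a protein with tetratricopeptide repeats, which mediate contacts between proteins. AT5G20190 had 116, 119 and 116 TPM in T31A, 86.6, 79.7 and 88.6 in K36A, 87.3, 84.2 and 83.5 in efs, and 67.5, 76.9 and 80.3 in Col. T31A was highest, and efs was above Col in every library, at 1.13 times its mean. K36A was also mostly above Col, and only its lowest library, at 79.7 TPM, lay under the highest Col library, at 80.3. AT5G20190, AT5G13400 and AT3G60960, which also has tetratricopeptide repeats and a T31A level 1.52 times that of Col, were the 3 rises with a G-box, CACGTG, the core bound by many bHLH and bZIP factors. The G-box was in 3 of 16 rises (18.8%), 1 of 33 falls (3.03%) and 8.38% of all promoters. Both sequences below run from 250 bases before to 50 after the annotated start, with the G-box in capitals (TAIR10.1, from RefSeq), and are shown because these are the 2 most abundant rises. The windows are chr5:4299215-4299514, minus strand, for AT5G13400 and chr5:6813512-6813811, plus strand, for AT5G20190.
AT5G13400: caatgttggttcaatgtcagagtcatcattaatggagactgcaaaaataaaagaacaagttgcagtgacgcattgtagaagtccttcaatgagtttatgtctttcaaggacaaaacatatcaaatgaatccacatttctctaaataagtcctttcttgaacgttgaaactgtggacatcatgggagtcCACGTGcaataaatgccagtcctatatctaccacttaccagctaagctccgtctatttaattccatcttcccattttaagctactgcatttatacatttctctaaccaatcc
AT5G20190: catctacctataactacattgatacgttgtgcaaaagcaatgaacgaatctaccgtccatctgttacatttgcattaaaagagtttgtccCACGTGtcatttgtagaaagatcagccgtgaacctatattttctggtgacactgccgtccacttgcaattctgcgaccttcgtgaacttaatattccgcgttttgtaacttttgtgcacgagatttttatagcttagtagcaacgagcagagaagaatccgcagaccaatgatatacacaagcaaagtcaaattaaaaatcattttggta
The G-box begins 62 bases before the annotated start in AT5G13400 and 160 bases before it in AT5G20190.

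Other rises were lower or less even. ATL43, a RING-type protein of the ATL family of ubiquitin ligases, averaged 8.82 ± 1.32 TPM in T31A, 5.96 ± 0.257 in K36A, 5.90 ± 0.450 in efs and 5.49 ± 0.501 in Col (SD, n = 3 each). AT3G54120, a reticulon family protein of the endoplasmic reticulum, averaged 6.95 ± 1.148 TPM in T31A and 4.35 ± 1.18 in Col, and its gene overlaps AT3G54110. EDA8, a putative membrane lipoprotein, averaged 7.63 ± 1.28 TPM in T31A and 5.05 ± 0.976 in Col. Their T31A libraries stayed above every other library, which was not so for the last 3 rises. AT4G37685, an uncharacterized protein, had 5.19, 4.96 and 4.94 TPM in T31A, and 1 efs library reached 4.998. In AT1G20520, a DUF241 protein, 1 K36A library at 5.76 TPM lay within the T31A range of 5.24 to 7.69. AT1G49245, a prefoldin family protein, had 10.3, 14.1 and 14.1 TPM in T31A against 4.88, 10.4 and 8.999 in Col, the only rise in which T31A and Col overlapped.

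**Figure D3:**
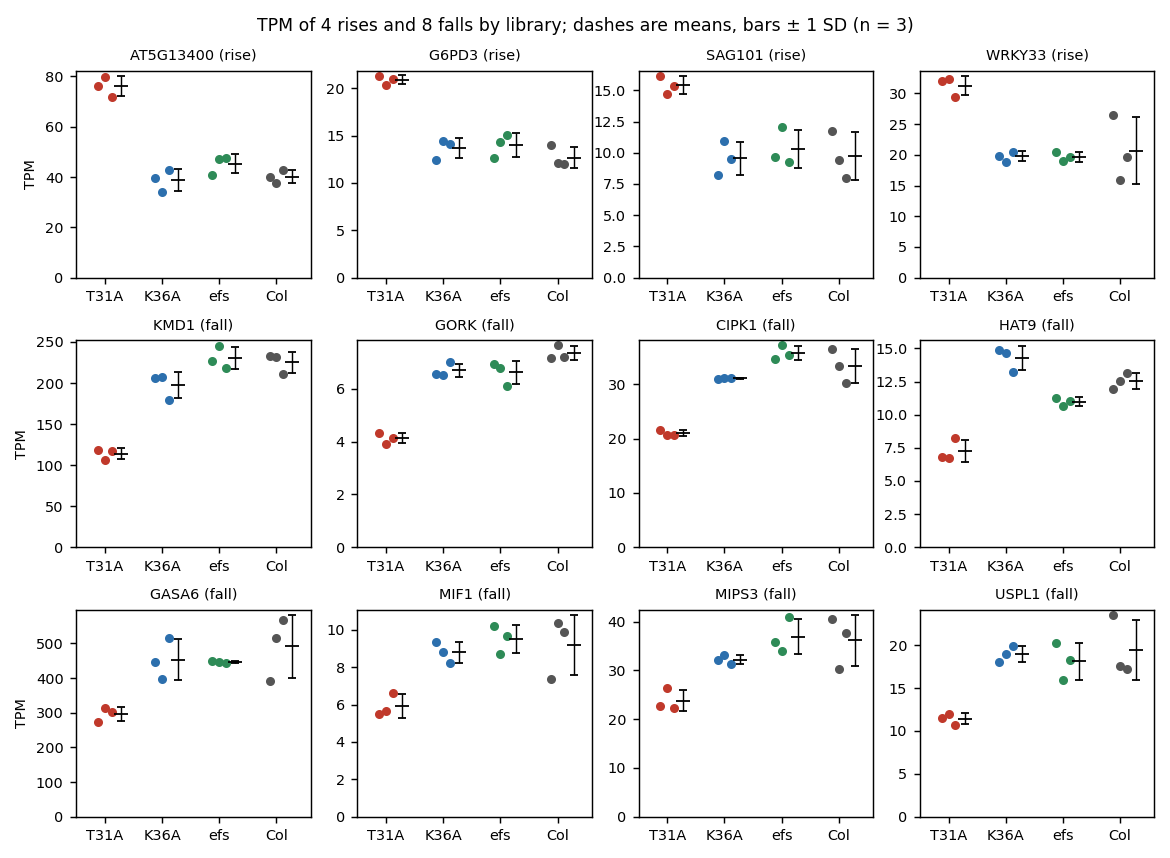
TPM by library for 4 rises and 8 falls, with T31A on the left and Col on the right of each panel and vertical axes that start at 0. Points are libraries, dashes are means and bars are 1 SD (n = 3). In all 12 panels the T31A points are clear of the other 9.

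The falls included the F-box gene KMD1, which had the second lowest ratio and one of the highest levels. KMD1 belongs to a family of kelch-repeat F-box proteins that mark type-B cytokinin response regulators and phenylalanine ammonia-lyases, the entry enzymes of phenylpropanoid synthesis, for degradation. KMD1 had 118, 107 and 117 TPM in T31A, 206, 208 and 179 in K36A, 227, 245 and 218 in efs, and 233, 232 and 210.4 in Col. T31A was at 0.51 of the Col mean, and K36A lay below Col in every library, at 0.88 of its mean. AT3G27150, another kelch-repeat protein, which the reference annotates as a target of MIR2111-5p, had 3.31, 3.12 and 3.33 TPM in T31A, 5.57, 6.94 and 4.75 in K36A, 5.36, 5.10 and 4.71 in efs, and 5.98, 5.72 and 4.31 in Col. T31A was the lowest in each case. AT3G23880, annotated as an F-box protein, averaged 30.1 ± 2.74 TPM in T31A, 44.5 ± 4.39 in K36A, 48.7 ± 1.27 in efs and 45.1 ± 4.74 in Col (SD, n = 3 each).

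GORK is the outward potassium channel of the Shaker family through which guard cells release potassium when stomata close. GORK had 4.32, 3.92 and 4.14 TPM in T31A, 6.56, 6.51 and 6.99 in K36A, 6.95, 6.79 and 6.10 in efs, and 7.17, 7.65 and 7.19 in Col. T31A was at 0.56 of the Col mean, and the K36A and efs libraries were also all below those of Col, at 0.91 and 0.90 of its mean. CIPK1 is a protein kinase that is switched on by the calcium sensors CBL1 and CBL9 and takes part in abscisic acid and drought responses. CIPK1 had 21.6, 20.7 and 20.6 TPM in T31A, 31.03, 31.1 and 31.1 in K36A, 34.7, 37.2 and 35.4 in efs, and 36.5, 33.4 and 30.3 in Col. The T31A libraries were close together and far below the rest, at 0.63 of the Col mean. MAPKKK14, a kinase at the head of a MAP kinase cascade, had 7.37, 7.52 and 7.81 TPM in T31A, 9.36, 10.4 and 11.3 in K36A, 9.31, 11.2 and 9.52 in efs, and 11.6, 12.01 and 11.6 in Col. K36A and efs were intermediate, with every library of both below Col, at 0.88 and 0.85 of its mean.

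Transcription factors made up 6 of the 50 genes (12%) and 4.74% of the genes past 5 TPM, by product names. Of the 6, 5 were falls, as were 34 of the 50 genes. HAT9 and HAT14 are homeodomain-leucine zipper factors of class II, a class that acts in auxin and shade responses and in leaf patterning. HAT9 had 6.81, 6.70 and 8.21 TPM in T31A, 14.9, 14.7 and 13.2 in K36A, 11.3, 10.7 and 11.01 in efs, and 11.9, 12.6 and 13.1 in Col. T31A was far below the others, while K36A was above Col and efs below it in every library. HAT14 had 4.39, 4.66 and 5.56 TPM in T31A, 7.59, 7.60 and 6.65 in K36A, 8.13, 5.91 and 6.13 in efs, and 8.25, 7.52 and 6.67 in Col. The distance to the nearest efs library was small. MIF1 is a short zinc finger protein without a homeodomain, and plants that overexpress it respond weakly to gibberellin, brassinosteroid and auxin. MIF1 had 5.47, 5.68 and 6.63 TPM in T31A, 9.35, 8.82 and 8.23 in K36A, 10.2, 8.70 and 9.67 in efs, and 7.36, 10.3 and 9.88 in Col. Col replicate 1 was the nearest to T31A. The bHLH factor AT1G62975 averaged 9.62 ± 0.448 TPM in T31A and 14.9 ± 2.99 in Col. The bHLH factor AT2G41130 averaged 9.50 ± 0.185 TPM in T31A and 14.3 ± 4.15 in Col. The wide SD in Col came from Col replicate 1, which was highest in both, at 18.2 and 19.1 TPM. OFP2 and AT3G16280 are regulators that the product names did not assign to the class, an ovate family repressor and an AP2-domain protein named as integrase-type. OFP2 averaged 3.89 ± 0.431 TPM in T31A and 6.43 ± 1.67 in Col, and AT3G16280 averaged 4.24 ± 0.708 TPM in T31A, 7.43 ± 2.86 in K36A, 6.63 ± 0.360 in efs and 7.12 ± 1.83 in Col. In AT3G16280, K36A replicate 3, at 4.60 TPM, lay within the T31A range.

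The most abundant fall was GASA6, a small cysteine-rich peptide of the gibberellin-regulated family that promotes seed germination. GASA6 had 273, 315 and 301 TPM in T31A, 445, 399 and 517 in K36A, 450.4, 445 and 444 in efs, and 391, 516 and 567 in Col. All T31A libraries were below the others, at 0.60 of the Col mean, with Col replicate 1 the nearest wild-type library. GASA6 overlaps the gene AT1G74675. AT3G10020, without a described product, had 159, 139 and 156 TPM in T31A, 248, 298 and 219.8 in K36A, 225, 226 and 213 in efs, and 246, 236 and 202 in Col. The highest T31A library was well below the lowest other one. AT2G29670, with tetratricopeptide repeats, had 81.5, 87.2 and 78.3 TPM in T31A, 140.0, 133 and 139.7 in K36A, 109, 112 and 112 in efs, and 132, 125 and 122 in Col. The 4 genotypes were fully ordered here, with K36A above Col, efs below it and T31A lowest.

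MIPS3 is a myo-inositol-1-phosphate synthase, which makes the first committed step of inositol synthesis. MIPS3 had 22.7, 26.3 and 22.4 TPM in T31A, 32.2, 33.1 and 31.3 in K36A, 35.9, 34.0 and 40.9 in efs, and 40.6, 30.4 and 37.6 in Col. J20 is a chloroplast J-protein that hands the first enzyme of the plastid isoprenoid pathway to Hsp70 for breakdown. J20 had 79.0, 74.6 and 78.5 TPM in T31A, 121, 123 and 117 in K36A, 128, 122 and 114 in efs, and 123, 119.9 and 111 in Col. In both genes T31A was at 0.66 of the Col mean and clear of all other libraries. RXF12, a xylanase of glycosyl hydrolase family 10, averaged 14.2 ± 1.01 TPM in T31A, 21.3 ± 0.473 in K36A, 21.4 ± 0.646 in efs and 21.7 ± 2.85 in Col. TBL34, which adds acetyl groups to xylan, averaged 5.78 ± 0.594 TPM in T31A, 9.22 ± 0.196 in K36A, 9.90 ± 0.485 in efs and 8.77 ± 0.731 in Col. SKS6, a protein similar to the multicopper oxidase SKU5, averaged 27.7 ± 1.001 TPM in T31A, 41.3 ± 2.79 in K36A, 45.2 ± 1.61 in efs and 42.9 ± 5.87 in Col (SD, n = 3 each). The T31A libraries of these 3 wall-related genes lay below every other library. USPL1, named for its likeness to an unknown seed protein, had 11.5, 11.97 and 10.7 TPM in T31A, 18.0, 18.9 and 19.9 in K36A, 20.2, 15.9 and 18.3 in efs, and 23.5, 17.55 and 17.3 in Col. T31A was at 0.59 of the Col mean and below all other libraries.

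AT5G19870, annotated as a transmembrane protein with a DUF716 domain, had the lowest ratio, 0.42. AT5G19870 had 2.30, 3.27 and 2.66 TPM in T31A, 6.74, 6.47 and 7.99 in K36A, 6.99, 6.605 and 6.05 in efs, and 8.88, 5.72 and 5.20 in Col, from 29 to 110 reads per library. T31A was lowest throughout, and Col replicate 1 was the highest library of all. AT5G43150, annotated as an elongation factor, averaged 20.8 ± 2.51 TPM in T31A, 39.3 ± 2.92 in K36A, 31.5 ± 2.96 in efs and 36.3 ± 7.93 in Col. The remaining 10 falls had T31A levels of 0.64 to 0.67 of the Col mean. AT2G31440, annotated as like a subunit of gamma-secretase, averaged 11.98 ± 0.190 TPM in T31A, 17.0 ± 2.64 in K36A, 20.6 ± 0.503 in efs and 18.6 ± 1.61 in Col. AT1G28710, annotated as a sugar transferase, averaged 9.30 ± 0.618 TPM in T31A and 14.2 ± 0.914 in Col. AT5G50130, annotated with an NAD(P)-binding fold, averaged 3.81 ± 0.190 TPM in T31A and 5.97 ± 0.334 in Col, and AT5G42880, likened to a protein of chloroplast movement, averaged 5.28 ± 0.331 TPM in T31A and 8.24 ± 1.39 in Col. In these 4 genes no T31A library overlapped another genotype. Of the RING proteins, DAFL1 averaged 18.5 ± 1.41 TPM in T31A, 31.3 ± 4.22 in K36A, 29.2 ± 5.19 in efs and 27.9 ± 3.61 in Col, and AT5G55970 averaged 10.05 ± 1.36 TPM in T31A and 15.04 ± 2.53 in Col. With AT2G47560 and, among the rises, ATL43, RING or U-box proteins were 4 of the 50 genes (8%) and 1.11% of the genes past 5 TPM, a class chosen after the genes were seen. In AT2G47560, at 4.75, 2.801 and 5.499 TPM in T31A against 9.33, 4.52 and 5.66 in Col, the T31A and Col libraries overlapped, the only such fall. AT3G28640, with tetratricopeptide repeats, is 96.8% identical over its coding length to AT3G28660, so its value of 5.01 ± 1.27 TPM in T31A against 7.58 ± 0.148 in Col is uncertain. AT1G24575, named as like an RNA helicase, averaged 6.49 ± 0.387 TPM in T31A and 9.93 ± 1.67 in Col, and in both of these genes T31A reached into another mutant's range. The locus ATCG00150, which the reference does not list, averaged 6.48 ± 1.30 TPM in T31A and 9.70 ± 1.87 in Col. Its T31A libraries overlapped both other mutants. T31A replicate 1, at -0.33 (log2 over the Col mean), lay above K36A replicate 3 at -0.44 and efs replicate 3 at -0.59.

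Promoter letters were compared for the 33 falls and 16 rises found in the reference. TATAAA, the core of the TATA box, was on either strand in 24 of 33 falls (72.7%), 7 of 16 rises (43.8%) and 51.9% of all promoters. Among the promoters of genes past the limits on level, K36A and efs it was in 49.8%. The window of USPL1 (chr1:18246055-18246354, plus strand, TAIR10.1, from RefSeq) is shown because USPL1 was kept by the rule without any single library, with TATAAA in capitals, beginning 34 bases before and 27 bases after the annotated start.
USPL1: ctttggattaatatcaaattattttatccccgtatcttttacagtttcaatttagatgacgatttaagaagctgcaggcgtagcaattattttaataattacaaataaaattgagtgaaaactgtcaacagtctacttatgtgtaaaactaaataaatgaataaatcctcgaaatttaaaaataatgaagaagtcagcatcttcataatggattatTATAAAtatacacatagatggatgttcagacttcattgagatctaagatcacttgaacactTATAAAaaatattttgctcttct
A binding site of the morning clock factor CCA1, AAAATCT on either strand, was in 10 of 33 falls (30.3%), 2 of 16 rises (12.5%) and 18.7% of all promoters. No motif searched contains another. KMD1, GORK and CIPK1 were among the 10, and the windows of KMD1 (chr1:30241202-30241501, plus strand) and CIPK1 (chr3:5992952-5993251, minus strand) have it in capitals.
KMD1: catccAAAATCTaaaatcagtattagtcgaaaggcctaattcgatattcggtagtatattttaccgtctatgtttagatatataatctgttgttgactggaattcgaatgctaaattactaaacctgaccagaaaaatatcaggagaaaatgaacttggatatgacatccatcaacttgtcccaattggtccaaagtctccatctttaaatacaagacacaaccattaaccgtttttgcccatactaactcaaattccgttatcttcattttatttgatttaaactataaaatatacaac
CIPK1: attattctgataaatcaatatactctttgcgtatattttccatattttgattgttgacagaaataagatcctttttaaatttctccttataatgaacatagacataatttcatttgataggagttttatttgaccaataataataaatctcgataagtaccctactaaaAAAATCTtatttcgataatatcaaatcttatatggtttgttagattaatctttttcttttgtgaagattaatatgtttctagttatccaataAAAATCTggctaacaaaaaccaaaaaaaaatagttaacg
The evening element AAATATCT was in 1 fall and no rise (5.82% of all promoters), and the heat shock element GAANNTTC was in 2 falls and 1 rise (11.4%). The site II element TGGGCC, frequent upstream of genes for growth, was in 3 falls and 1 rise (17.0% of all promoters). The GCC box GCCGCC, bound by ethylene response factors, was in WRKY33 and AT3G60960 and in no fall (2.55%), the DRE core ACCGAC was in 3 falls (5.98%), the TGA site TGACGT was in 2 falls (9.56%), the telo box AAACCCTA was in 1 rise (5.81%), and the CAMTA site ACGCGT was in none of the 49 (2.26%). A missing match says only that these letters are not in this window, and the motifs are not tests of any factor.

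In structure the 50 genes were short of introns. A single exon was annotated in 5 of 16 rises (31.3%) and 12 of 33 falls (36.4%), against 13.9% of genes past 5 TPM and 7.94% of those that also stayed within the limits in K36A and efs. The median number of exons was 3 in rises and 2 in falls, and 5 and 7 in those 2 wider sets. The median gene span was 1986 bases in rises, 2086 bases in falls and 2456 bases in genes past 5 TPM. The higher of the T31A and Col means was below 10 TPM in 43.8% of rises and 41.2% of falls, against 18.3% of genes past 5 TPM. The part of low levels in the choice was not tested. Another annotated gene overlaps 7 rises, among them AT5G13400, G6PD3 and WRKY33, and 7 falls, among them GASA6, MIF1 and MIPS3, and the sources used here do not say whether reads were counted by strand.

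Of the 49 genes found in the reference, rises numbered 5, 2, 2, 2 and 5 on chromosomes 1 to 5, and falls numbered 9, 8, 7, 1 and 8. Chromosome 4, with 1 fall, holds 15.2% of the genes past 5 TPM. In a single case 2 of them were next to each other: the falls MIF1 and GASA6 on chromosome 1 lie on opposite strands, 4740 bases apart, with no annotated gene between them. Col replicate 1 was the lowest Col library for both, at 7.36 and 391 TPM. Of 21 neighbours of rises past 5 TPM, none was at least 1.5 times Col in T31A and 3 were at most 0.67 times, and of 40 neighbours of falls the counts were 0 and 3, which include MIF1 and GASA6 as each other's neighbour. Among all 16067 genes the shares were 4.33% and 4.19%.

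The neighbour that stood out, singled out after its values were seen, was AT1G24290, which shares 76 bases with G6PD3 at its end (chr1:8612505-8614283, minus strand, against chr1:8609338-8612580, plus strand, for G6PD3, TAIR10.1). AT1G24290 had 2.704, 2.39 and 2.36 TPM in T31A, 5.26, 5.84 and 6.17 in K36A, 8.75, 7.21 and 7.17 in efs, and 8.43, 7.13 and 6.57 in Col. The 2 genes thus differed in opposite directions in T31A, with G6PD3 at 1.65 and AT1G24290 at 0.34 of the Col mean. AT1G24290 was at 0.78 of Col in K36A and so lay outside the limits. Another was AT5G19875 beside the fall AT5G19870, at 7.38 ± 1.04 TPM in T31A, 13.4 ± 1.97 in K36A, 6.46 ± 1.255 in efs and 14.9 ± 0.702 in Col (SD, n = 3 each). It was low in both T31A and efs, whereas AT5G19870 was low in T31A.

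**Figure D4:**
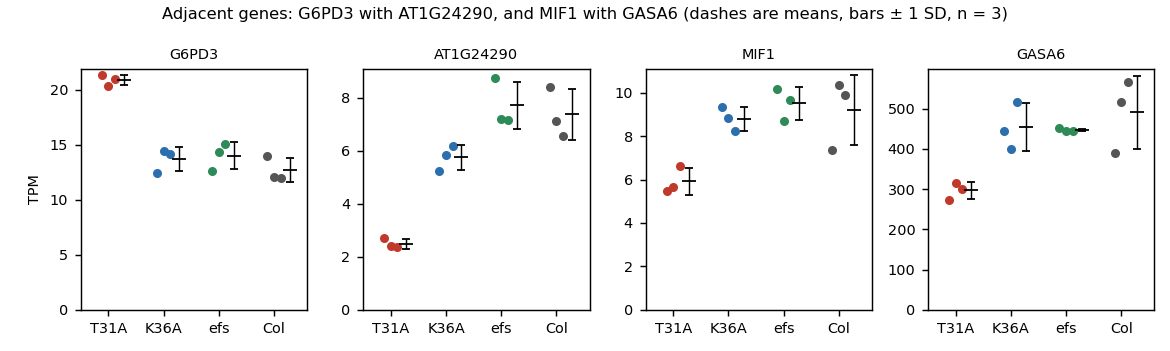
TPM by library for G6PD3 and its overlapping neighbour AT1G24290, and for the adjacent genes MIF1 and GASA6, with vertical axes that start at 0. Points are libraries, dashes are means and bars are 1 SD (n = 3). T31A is highest in the first panel and lowest in the other 3.

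Relatives of the chosen genes, picked after the genes were known, are given as values with no test. Of the KMD family, KMD4 averaged 191 ± 4.999 TPM in T31A, 219 ± 10.8 in K36A, 253 ± 10.7 in efs and 277 ± 2.27 in Col, with every mutant below Col and T31A lowest. KMD2 averaged 23.9 ± 2.32 TPM in T31A, 39.2 ± 5.18 in K36A, 71.1 ± 3.29 in efs and 26.5 ± 3.44 in Col, so that efs was far above Col and T31A overlapped it. In the inositol pathway, MIPS1 averaged 82.1 ± 3.75 TPM in T31A, 67.5 ± 6.5 in K36A, 28.2 ± 1.57 in efs and 121 ± 5.91 in Col, and MIPS2 averaged 16.9 ± 0.542 TPM in T31A, 13.6 ± 1.51 in K36A, 9.25 ± 0.920 in efs and 21.0 ± 2.92 in Col. Both were lowest in efs, whereas MIPS3 was lowest in T31A and its efs libraries overlapped Col.

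Among Shaker channels, AKT2, the weakly rectifying potassium channel of the phloem, averaged 15.6 ± 0.563 TPM in T31A, 21.6 ± 1.20 in K36A, 4.57 ± 0.350 in efs and 28.2 ± 3.12 in Col. AKT2 was thus as low against Col in T31A as GORK, at 0.55 of its mean, but it was lower still in efs. SKOR, the outward channel of root vessels, averaged 1.96 ± 0.382 TPM in T31A, 4.01 ± 0.351 in K36A, 2.77 ± 0.243 in efs and 2.95 ± 0.568 in Col. GASA1, a relative of GASA6, went the other way, at 1082 ± 47.4 TPM in T31A, 725 ± 43.7 in K36A, 1691 ± 92.4 in efs and 472 ± 78.0 in Col. In the HD-ZIP class of HAT9 and HAT14, HAT1 averaged 82.8 ± 4.79 TPM in T31A, 64.7 ± 3.09 in K36A, 87.1 ± 1.92 in efs and 54.4 ± 2.14 in Col, with every mutant above Col. HAT2, of the same class, was lower in every T31A library than in Col, at 0.82 of the Col mean in T31A, 0.86 in K36A and 0.95 in efs. HAT22 was at 0.80 of the Col mean in T31A, with overlapping libraries, and at 0.94 in both K36A and efs. WRKY25, a close relative of WRKY33, averaged 24.8 ± 1.59 TPM in T31A, 18.8 ± 1.11 in K36A, 29.5 ± 0.506 in efs and 17.1 ± 2.04 in Col (SD, n = 3 each), so its highest level was in efs. CBL9, a calcium sensor for CIPK1, averaged 13.0 ± 0.249 TPM in T31A and 13.9 ± 0.790 in Col, and CBL1, the other sensor, averaged 9.29 ± 0.406 TPM in T31A and 7.45 ± 0.674 in Col.

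**Figure D5:**
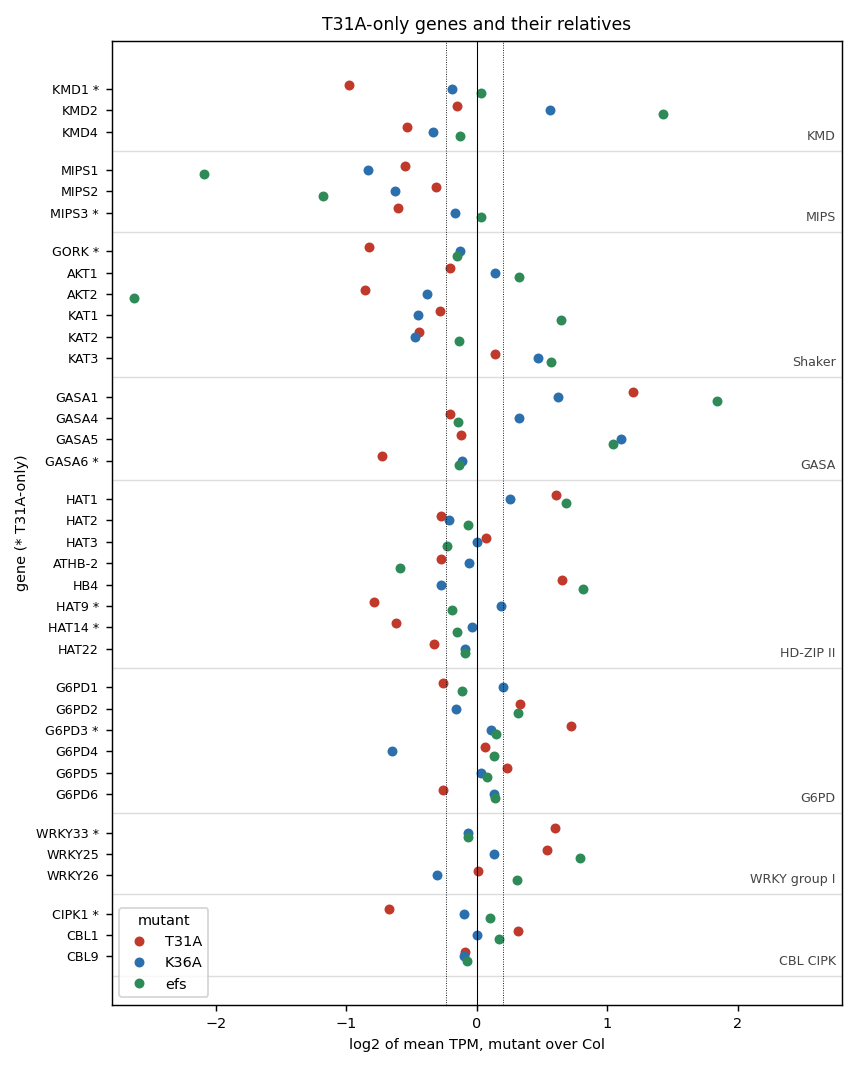
Log2 of mean TPM over Col in T31A, K36A and efs for 9 of the chosen genes (asterisks) and their relatives with a mean of at least 5 TPM in any genotype. Dotted lines mark 15% below and above Col, between which K36A and efs of the asterisked genes lie by the rule, and some relatives, such as HAT2 and CBL9, also have both between them.

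Only 1 of the 50 genes, SAG101, belonged to any of 14 lists of pathway genes tested across all 19984 genes with limma on log2(TPM + 1), where 15.7% of genes were called higher and 11.1% lower in T31A than in Col at an adjusted p under 0.05. Of these calls 58.5% were higher, and with median-of-ratios scaling 44.9% were. Of the 9 other salicylic acid and EDS1 pathway genes tested, 4 were higher in T31A than in Col. Of the same 9, 4 were higher in K36A than in Col, where 22.6% of all genes were, and 3 were higher and 2 lower in efs, where 31.4% and 17.4% were. The call of 1 of the 4 in T31A, ICS1, the main enzyme of salicylic acid synthesis, was lost without T31A replicate 1, T31A replicate 2 or Col replicate 3. CBP60G, a transcription factor that turns on salicylic acid synthesis, averaged 7.61 TPM in T31A, 1.79 in K36A, 1.36 in efs and 1.21 in Col and was higher in T31A than in Col by 1.96 (log2, SE 0.15, limma adjusted p = 2.8e-07). EDS1 and PAD4 were singled out, after their values were seen, for their link with SAG101. EDS1, its partner, averaged 19.2 TPM in T31A and 16.3 in Col, a difference of 0.22 (SE 0.09) that was not called (limma adjusted p = 0.0719, and 0.0295 without T31A replicate 1). PAD4, the other partner of EDS1, averaged 6.59 TPM in T31A, 10.3 in K36A, 5.33 in efs and 7.02 in Col and was not called between T31A and Col (limma adjusted p = 0.633).

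Genes for indolic defence compounds, the branch that WRKY33 acts on, included 5 of 13 higher and 3 lower in T31A than in Col. The counts against Col were also 5 higher and 3 lower in K36A, and 4 higher and 4 lower in efs. CYP71A12, an early enzyme of camalexin synthesis, averaged 41.6 TPM in T31A, 2.25 in K36A, 0.45 in efs and 2.79 in Col and was higher in T31A than in Col by 3.49 (log2, SE 0.11, limma adjusted p = 1.0e-10). CYP81F2, which modifies indole glucosinolates, averaged 20.4 TPM in T31A, 4.46 in K36A, 7.86 in efs and 1.98 in Col, higher in T31A by 2.86 (SE 0.13, limma adjusted p = 3.2e-09). The 5 genes of this list not called between T31A and Col included the camalexin gene PAD3 (limma adjusted p = 0.268). The others were MYB51 (0.279), MYB34 (0.759), MYB122 (0.141) and SUR1 (0.0755). MYB51 was called without Col replicate 1 and MYB122 without T31A replicate 1. SUR1 was called with median-of-ratios scaling and without Col replicate 2. A link between this list and the level of WRKY33 was not tested. CCA1, for which a binding site was searched in the promoters, is on the list of morning clock genes. All 9 tested genes of that list were lower in T31A than in Col, 8 were lower in efs and 5 in K36A, where 8.9% of all genes were lower. CCA1 itself averaged 4.81 TPM in T31A, 10.4 in K36A, 5.63 in efs and 13.0 in Col, so it did not have the pattern of the 50 genes. The labels give no time of harvest. Heat chaperone genes, beside the J-protein J20, were lower in T31A than in Col in 9 of 13 and higher in 1, in K36A lower in 7 and higher in 1, and in efs lower in 9 and higher in 3.

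Of the genotype genes (HTR4, HTR5, HTR8 and EFS), 1 was higher in T31A than in Col, HTR5, and 2 were lower, HTR4 (limma adjusted p = 0.00057) and HTR8. The median difference from Col over these genes was -0.17 in T31A and -0.30 in K36A (log2). In T31A that median lies midway between HTR4 and EFS, with HTR8 far below it and HTR5 above it. It is therefore not the difference of HTR4 alone. The other lists gave 7 higher and 2 lower of 11 nitrate genes, 3 and 6 of 13 jasmonate genes, 11 lower of 12 aliphatic glucosinolate genes (12 in K36A and 11 in efs), and 1 and 3 of 13 iron deficiency genes. Of evening clock genes 3 and 1 of 9 were higher and lower in T31A, of auxin response genes 1 and 3 of 15, of cold and drought genes 2 and 1 of 13, of endoplasmic reticulum chaperones 2 and 2 of 11. Of 9 flavonoid genes limma called none in either direction, with 2 higher and 0 lower at an unadjusted p under 0.05. Median-of-ratios scaling changed the counts of evening clock, endoplasmic reticulum, cold and drought, auxin, nitrate, iron deficiency and indolic genes by 1 or 2 genes.

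Genes just outside the limits show how the choice falls. Just below the limit of 1.5 were AT1G11303 and PROT2, a proline transporter, at 1.48 times Col, beside AT1G20520 and EDA8 at 1.51 just inside. Just above 0.67 were CLC-B, a chloride channel family member, at 7.12 TPM in T31A and 10.6 in Col, and AT3G20370, at 75.4 TPM in T31A and 112 in Col, beside AT2G47560 and AT3G23880 just inside. NAC105 and AT1G21050, at 0.60 and 0.62 of Col in T31A, missed the lower limit by their K36A ratio of 0.84, next to AT2G41130 and OFP2 at 0.86 and 0.87. Hop3, a heat-stress co-chaperone, was at 16.3 TPM in T31A, 29.3 in K36A, 26.5 in efs and 31.4 in Col and missed it by its efs ratio of 0.84, as did the clock-related DOF factor CDF2, beside AT1G20520 and MAPKKK14 at 0.85. On the upper side AT1G69680 and AT1G14185 were left out by K36A ratios just past the limit and of 1.16, with HAT9 and AT1G11330 inside at 1.14 and 1.13. AT3G16650 and AT1G31710 were left out by efs ratios of 1.16 and 1.17, with AT3G54120 and AT4G37685 inside at 1.14. By level, AT3G45420 and ABCA7 missed 5 TPM at 4.95 and 4.82, with AT4G37685 and AT5G05365 inside at 5.03 and 5.33.

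Col replicate 1 was the highest Col library in 9 of 16 rises and 23 of 34 falls, and without that library the rule gave 14 rises and 21 falls, of which 8 and 13 were among the 50. Without Col replicate 2 the rule kept 9 of the 16 rises and 25 of the 34 falls, and without Col replicate 3 it kept 6 and 23. Without any 1 of the 12 libraries in turn, no rise and 4 falls were kept every time: GORK, USPL1, CIPK1 and AT2G29670. With medians in place of means 7 rises and 18 falls were kept, and with median-of-ratios scaling 9 and 19. USPL1 and CIPK1 were the 2 genes kept under all of these. The direction of T31A against Col did not turn in any of the 50 genes under the same scaling or without any T31A or Col library, a direction that the choice of members largely fixes.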

How the data were processed

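The deposited table gave TPM for 23916 genes in 12 libraries. Its column headers name gene counts, but the columns share one total, as TPM does, and 99.98% of genes with an annotated span in TAIR10.1 (23745) gave whole reads within 0.001 when scaled by gene span, introns included, so the deposited TPM of a gene with long introns is low. Per the submitters' processing notes, fastp 0.20.1, HISAT2 2.1.10, DESeq2 1.26.0 and TAIR10 were used, and the sources used here do not name the counter.

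The members and gene lists were chosen with earlier results of these data known, and the gene families and the RING and tetratricopeptide classes after values were seen. Ratios are of mean TPM. Differences between genotypes were fitted with limma 3.58.1 (R 4.3.3, intensity trend) on log2(TPM + 1) over 19984 genes with at least 1 TPM in at least 3 libraries, with 5 contrasts, 95% intervals and Benjamini-Hochberg adjusted p-values at 0.05, which measure only the spread between these libraries. The fit was tested on simulated data. Python 3.11.15, pandas 2.3.3 and BLAST 2.17.0 served for ratios, motifs and near copies. Promoters and names came from RefSeq (TAIR10.1), where 49 of the 50 genes were found.

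Genes were named by rule: the 12 with the largest ratio in each direction without overlap between T31A and Col, the 4 most abundant, those in a gene list or in a class with at least 3 members, those nearest each limit, and up to 3 genes per list by smallest p. Other names were chosen after values were seen.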

Additional observations from a re-analysis of the deposited data

How the results depend on the processing

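The number of chosen genes depended on every limit of the rule. A minimum of 10 TPM gave 9 rises and 20 falls, a minimum of 1 TPM gave 19 and 57, limits of 2 and 0.5 on T31A gave 1 and 1, a range of 0.8 times Col to its inverse for K36A and efs gave 43 and 63, a range of 0.9 to 1.1 gave 6 and 18, and medians gave 10 and 32. Leaving out 1 library at a time gave 11 to 18 rises and 21 to 45 falls, and median-of-ratios scaling gave 24 and 36. The T31A to Col ratios moved by less than 1 SD in 349 of 350 values under that scaling and without single T31A or Col libraries, the exception being MAPKKK14 at -0.68 (log2). Scaling shifted the median of all genes by -0.05 in T31A, -0.11 in K36A and -0.11 in efs (log2), and with it 44.9% of calls in T31A against Col were higher, against 58.5% as deposited. The split was 46.2% against 71.7% for K36A and 47.3% against 64.4% for efs. The count of genes called between T31A and Col was 5347 and stayed between 3894 and 5657. Replicate numbers did not pair the libraries: correlations of same-numbered libraries ran from -0.46 to 0.52, and 6 of 18 were over 0.1. Some libraries of different genotypes did deviate from their group means together. Among Col replicate 3, K36A replicate 3, efs replicate 3 and T31A replicate 2, every correlation was between 0.39 and 0.53, and the source of this was not tested. With the replicate block limma called 5316 genes for T31A, 6252 for K36A and 9717 for efs against Col. Levels of a few TPM rest on few reads, which limits the ratios of the weakest genes.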
